A study of Caenorhabditis elegans with 6 samples.

Results

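The genes described here encode nuclear subunits of the mitochondrial respiratory chain of Caenorhabditis elegans, with some of the factors that assemble it. They were chosen by gene name in the array annotation: symbols beginning with nuo, cox, ucr, cyc, sdha, sdhb, sdhd, atp, asb or asg followed by a number, together with gas-1, isp-1, mev-1 and clk-1. The rule found 42 genes among the 17118 genes measured. It uses names and no expression value, but it was set with earlier results of these data known. Of the 42, 6 belong to complex I, 5 to complex II, 6 to complex III, 13 to complex IV and 9 to complex V, 2 encode cytochrome c, and clk-1 stands alone. Another 4 names that the rule matches in a current gene table, nuo-3, ucr-11, cox-14 and cox-16, and the chain subunits of the mitochondrial genome were not analysed here.

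Transcripts were measured in whole adults of the strain fer-15(b26), a mutant that leaves no progeny when raised warm because its sperm do not work. Both groups carried this mutation, were fed E. coli OP50, were raised at 25 °C from the egg on plates with 0.1% ethanol, and were collected on day 4 of adulthood. The 3 control arrays came from worms on plates with vehicle alone, and the 3 tyrosol arrays from worms on plates with 250 µM tyrosol, a phenolic alcohol of olive oil. By its title the series concerns the longer life of worms on tyrosol. How many separate cultures gave the arrays is not stated, and p-values therefore rest on array-to-array spread, which may be technical. Each array carried probe sets, groups of short probes that read 1 transcript or a few alike, and a gene was read on its brightest probe set that names no other gene. Of the 42 genes, 20 were read on a probe set whose suffix marks possible binding of related transcripts.

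The respiratory chain carries electrons from NADH through complex I, or from succinate through complex II, to ubiquinone, then through complex III and cytochrome c to complex IV, which reduces oxygen. Complexes I, III and IV pump protons, and complex V, the ATP synthase, uses the proton gradient to make ATP. In this worm the chain is known for its ties to lifespan: mutants of isp-1, clk-1 and nuo-6 live longer, as do worms in which nuo-2, cyc-1, cox-5B or atp-3 is silenced during development, whereas mutants of gas-1 and mev-1 are short-lived.

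No respiratory chain gene passed the test for a difference between worms on tyrosol and worms on vehicle. The rank product, the test the study itself names, ranks all genes by their difference in each pairing of a treated with a control array, with calls made below an estimated false discovery rate of 0.05. It called 0 of the 42 genes, against 0.882% of all genes measured (0.945% of probe sets), and the lowest rate among the 42 was 0.18, for cyc-2.2. Limma, a linear model that shares information on spread across all probe sets, called 0 of the 42 against 0.351% of all genes, with the lowest adjusted p at 0.27. With the replicate number as a block limma called 0.73% of all genes and the rank product 0.976%, and again 0 of the 42. At an unadjusted limma p under 0.05 stood 1 of the 42, cyc-2.2, against 7.21% of all genes. The count of 0 is near these backgrounds and is not a result about the chain, whose differences are better described by their sizes.

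Those sizes were small. On the log2 scale 41 of the 42 genes differed between groups by less than 0.2, which is a 1.15-fold difference, and 76.8% of all genes whose mean level lay above the median of the arrays did the same. The median difference of the 42 was 0.0035, beside -0.017 over all genes, with 22 genes above 0 and 20 below. The 95% intervals of 40 of the 42 genes lay within 0.5 of 0 on the log2 scale, so at these a 1.41-fold difference in either direction lies outside the interval. The exceptions were cyc-2.2 and cox-17, both described below. The standard error of a difference had a median of 0.10 for the 42 genes and 0.12 for all probe sets. Since the samples were whole worms, fewer cells of a type and less RNA per cell cannot be told apart.

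**Figure D1:**
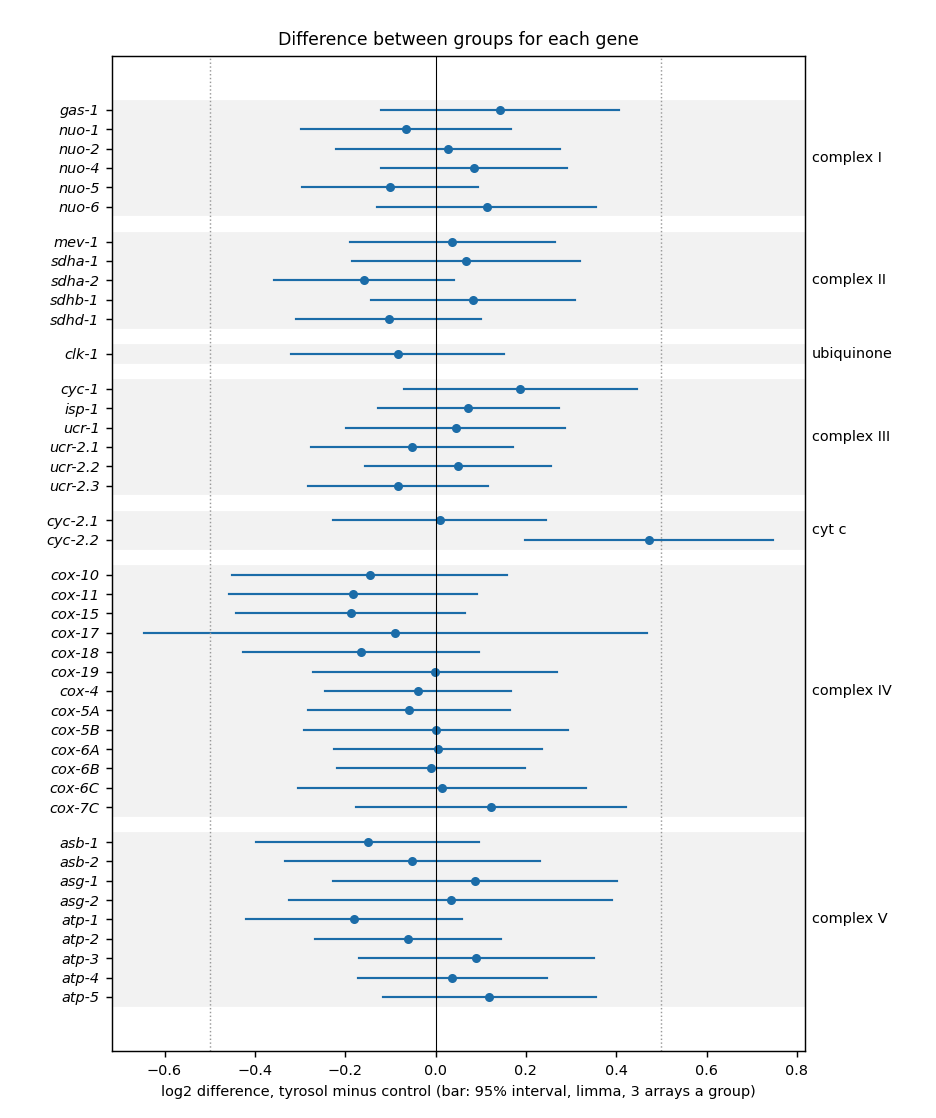
Log2 difference between the tyrosol and control groups for each of the 42 genes (points) with its 95% interval from limma (bars), 3 arrays a group, grouped by complex. Dotted lines stand at -0.5 and 0.5; the intervals of 40 genes lie between them, and that of cyc-2.2 alone does not include 0.

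The arrays were alike as a whole, with a mean correlation of each with the others of 0.991 to 0.995 over all probe sets. Tyrosol replicate 2 stood farthest from its group, with a standard deviation of 0.21 for its deviations from the group mean, against 0.11 to 0.15 on the other 5 arrays. The excess of the 3' over the middle probe sets of 3 added poly-A control transcripts was 2.18 on that array and 1.11 to 1.53 on the others. The sign of the difference between groups turned in 10 of the 42 genes without that array, and in 17 of the 42 without at least 1 of the 6 arrays. Body wall muscle markers, of which 0 of 16 were called and 0 were at 0, had a summed linear signal of 2118.3 to 2317.4 in control worms and 2385.2 to 2527.1 in tyrosol worms. Without act-4, the brightest of them, the sums overlapped, at 1526.1 to 1763.4 and 1641.1 to 1776.6. Of 13 epidermis markers 4 were called higher by the rank product, against 0.859% of all genes, and of 14 intestine and 14 neuron markers 0 were. The part of tissue make-up in the chain's values was not tested.

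Complex I takes electrons from NADH. Its 6 genes under the naming rule had a median difference of 0.056 on the log2 scale, with 4 above 0 and 2 below. Further subunit genes of complex I outside the rule are given below with the other chain genes, and all but nduf-7 lay below 0. The highest difference of the 6 was that of gas-1, which encodes a subunit of the complex. It read 7.27, 6.95 and 7.29 in the control arrays, in the order of replicates 1 to 3, against 7.33, 7.35 and 7.26 in the tyrosol arrays. The groups overlapped, with control replicate 2 the lowest of the 6, and the difference was 0.14 (SE 0.11, limma adjusted p = 0.85). Without control replicate 2 the difference of gas-1 was 0.032. A second, dimmer probe set of gas-1 differed by -0.062, the other way.

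The lowest difference of the 6 complex I genes was that of nuo-5, which encodes NDUFS1, a subunit with iron-sulfur clusters. Its log2 values were 7.41, 7.41 and 7.43 in control worms and 7.35, 7.26 and 7.34 in tyrosol worms. All tyrosol values were below all control values, yet the difference of -0.10 (SE 0.084) did not pass in limma (adjusted p = 0.85). Among the other members, nuo-1, which encodes the NADH-binding NDUFV1 subunit, differed by -0.066, and nuo-2, nuo-4 and nuo-6, which encode further subunits of the complex, by 0.028, 0.085 and 0.11. The median of complex I was 0.022 without tyrosol replicate 2 and 0.0021 without both second replicates.

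Complex II oxidises succinate and is also an enzyme of the tricarboxylic acid cycle. Its 5 genes had a median difference of 0.037 on the log2 scale, 3 above 0 and 2 below, and without tyrosol replicate 2 the median was -0.035. The gene mev-1, for the large membrane anchor (SDHC), read 7.91, 7.93 and 7.99 in control worms and 7.87, 8.12 and 7.95 in tyrosol worms, overlapping groups with a difference of 0.037 (SE 0.099, limma adjusted p = 0.97). The flavoprotein that binds succinate is encoded by a pair of genes, sdha-1 and sdha-2. For sdha-2 the log2 values were 8.51, 8.48 and 8.46 in control worms and 8.37, 8.35 and 8.25 in tyrosol worms, so that the groups did not overlap, and the difference was -0.16 (SE 0.087, limma adjusted p = 0.76).

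For sdha-1 the values were 5.67, 5.42 and 5.34 in control worms and 5.48, 5.60 and 5.55 in tyrosol worms. These overlap, with a difference of 0.068 (SE 0.11). The change of the sdha-1 to sdha-2 ratio within arrays was 0.23 on the log2 scale (SE 0.10, two-sided exact permutation p = 0.2 with 3 arrays a group, and 0.35 after adjustment over 7 gene pairs). The smallest p that 3 against 3 arrays allow is 0.1. The iron-sulfur subunit gene sdhb-1 read 8.34, 8.27 and 8.28 in control worms and 8.41, 8.24 and 8.48 in tyrosol worms, and differed by 0.082 (SE 0.098). The small membrane anchor gene sdhd-1 differed by -0.10 (SE 0.089).

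Ubiquinone, which receives the electrons of complexes I and II, is made with the help of the hydroxylase CLK-1. Its gene clk-1 read 6.15, 6.39 and 6.21 in control worms and 6.09, 6.26 and 6.14 in tyrosol worms on the log2 scale. Replicate 2 was the highest in both groups, the groups overlapped, and the difference was -0.084 (SE 0.10, limma adjusted p = 0.90). Of the 7 measured genes in the list of ubiquinone synthesis, clk-1 included, 0 were called by the rank product or limma and 0 had an unadjusted limma p under 0.05. The list's median difference was -0.067, with 3 above 0 and 4 below. The gene of lowest limma p in it, coq-1, which encodes an enzyme that builds the side chain of ubiquinone, read 5.6633, 5.6611 and 5.9999 in control worms and 5.63, 5.39 and 5.56 in tyrosol worms, all below the controls, and differed by -0.25 (SE 0.12, limma adjusted p = 0.74).

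Complex III passes electrons from ubiquinone to cytochrome c. Its 6 genes had a median difference of 0.047 on the log2 scale, 4 above 0 and 2 below. The gene cyc-1, for cytochrome c1, had the highest difference of the complex. It read 7.39, 7.42 and 7.23 in control worms and 7.41, 7.72 and 7.47 in tyrosol worms, so that the groups overlapped by a narrow margin, and the difference was 0.19 (SE 0.11, limma adjusted p = 0.78). Tyrosol replicate 2 was the highest of the 6 arrays, and without single arrays the difference of cyc-1 ran from 0.097 to 0.25.

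The gene of the Rieske iron-sulfur protein, isp-1, read 10.13, 10.06 and 10.11 in control worms and 10.13, 10.24 and 10.15 in tyrosol worms. The groups overlapped by a narrow margin, and the difference was 0.073 (SE 0.087, limma adjusted p = 0.90). A second, dimmer probe set of isp-1 differed by -0.12. The core proteins hold the complex together, and ucr-1, for the first of them, differed by 0.045 (SE 0.11).

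The other core protein has a family of 3 genes. On the log2 scale ucr-2.1 read 7.37, 7.31 and 7.28 in control worms and 7.18, 7.40 and 7.22 in tyrosol worms, a difference of -0.052 (SE 0.097). For ucr-2.2 the values were 6.36, 6.45 and 6.31 against 6.40, 6.48 and 6.38, a difference of 0.050 (SE 0.089). The suffix of that probe set marks possible binding of related transcripts. A second, dimmer probe set of ucr-2.2 without such a suffix differed by -0.13 (SE 0.12), the other way, and the ratios below were not worked out on it. For ucr-2.3 they were 7.61, 7.58 and 7.65 against 7.46, 7.56 and 7.56, a difference of -0.084 (SE 0.087). Only ucr-2.3, of these 3, had all tyrosol values below all control values, by a narrow margin. Within arrays the ratio of ucr-2.2 to ucr-2.3 moved by 0.13 (SE 0.072) and that of ucr-2.1 to ucr-2.2 by -0.10 (SE 0.061), each with a two-sided exact permutation p of 0.2, and that of ucr-2.1 to ucr-2.3 by 0.031 (SE 0.069, exact permutation p = 0.7).

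Cytochrome c, the small carrier between complexes III and IV, is encoded by cyc-2.1 and cyc-2.2, and here lay the largest difference of all 42 genes. On the log2 scale cyc-2.2 read 1.38, 1.15 and 1.15 in control worms and 1.806, 1.503 and 1.792 in tyrosol worms. All tyrosol values were above all control values, as they were for 6.92% of all genes measured, and the difference was 0.47 (SE 0.12, 95% interval 0.20 to 0.75), a 1.39-fold difference. It did not pass in limma (adjusted p = 0.27, and 0.16 with the replicate number as a block) or in the rank product. The difference ran from 0.42 to 0.57 without single arrays. All 6 values lay below the medians of the arrays, which ran from 2.566 to 2.613, where a probe set may read little but background, so the level itself is uncertain.

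Many sperm genes, though not all, read higher on the same arrays. Of 24 measured sperm markers 19 were called higher by the rank product, against 0.859% of all genes, and their summed linear signal was 253.7 to 527.0 in control worms and 857.6 to 970.6 in tyrosol worms, with 0 of the 24 at 0. Their part in the difference of cyc-2.2 was not tested. The other gene, cyc-2.1, read 10.23, 10.36 and 10.25 in control worms and 10.26, 10.44 and 10.17 in tyrosol worms. These groups overlap throughout, and the difference was 0.0090 (SE 0.10, limma adjusted p = 0.99). Within arrays the ratio of cyc-2.1 to cyc-2.2 moved by -0.46 (SE 0.20, two-sided exact permutation p = 0.2, adjusted 0.35).

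**Figure D2:**
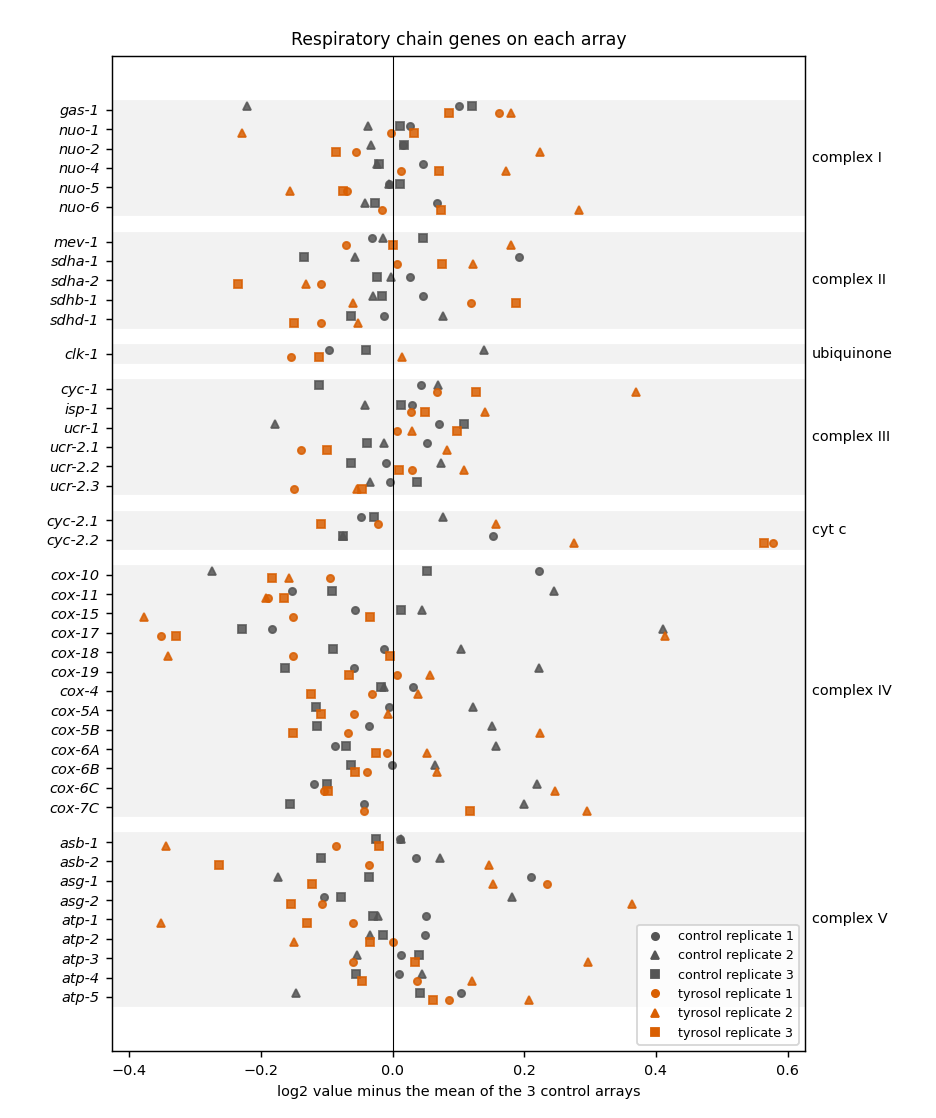
Log2 value of each of the 42 genes on each array, as the deviation from the mean of the 3 control arrays; grey marks control, orange tyrosol, and the symbol gives the replicate. Most orange and grey symbols overlap, cyc-2.2 is the gene with all tyrosol values far to the right, and replicate 2 (triangles) stands to the right in both groups for cox-17, cox-6C and cox-5B.

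Complex IV, cytochrome c oxidase, was represented by 7 subunit genes and 6 assembly genes. The subunit genes had a median difference of 0.0011 on the log2 scale, from -0.058 for cox-5A to 0.12 for cox-7C. The gene cox-5B, known as cco-1 in silencing studies of lifespan, read 10.03, 10.22 and 9.95 in control worms and 9.999, 10.29 and 9.92 in tyrosol worms, a difference of 0.0011 (SE 0.13). Replicate 2 was the highest array in both groups. The gene cox-7C, for a small subunit, read 9.45, 9.69 and 9.33 in control worms and 9.45, 9.78 and 9.61 in tyrosol worms. Its groups overlapped, and its difference of 0.12 (SE 0.13, limma adjusted p = 0.89) was the highest of the complex. For cox-7C it was 0.037 without tyrosol replicate 2 and 0.22 without control replicate 2. The subunit genes cox-4, cox-6A, cox-6B and cox-6C differed by -0.039, 0.0059, -0.0095 and 0.015.

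All 6 assembly genes had log2 differences below 0, their median was -0.16, and 0 of the 6 passed the rank product, limma or an unadjusted limma p under 0.05. They encode factors that make haem A (cox-10 and cox-15), deliver copper (cox-11 and cox-17, and in yeast cox-19) and, in yeast, insert a core subunit into the membrane (cox-18). The lowest was cox-15, for haem A synthase, which read 6.18, 6.29 and 6.25 in control worms and 6.09, 5.86 and 6.21 in tyrosol worms. The difference of cox-15 was -0.19 (SE 0.11, limma adjusted p = 0.78), with tyrosol replicate 3 inside the control range. Tyrosol replicate 2 was far below the rest, and without it the difference of cox-15 was -0.093. For cox-11 the values were 6.72, 7.12 and 6.79 against 6.69, 6.69 and 6.71, so that all tyrosol values were below all control values by a narrow margin. Control replicate 2 was far above the rest there, and the difference of -0.18 (SE 0.12) was -0.060 without that array.

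The other assembly genes cox-10, cox-18, cox-17 and cox-19 differed by -0.15, -0.17, -0.089 and -0.0012, and cox-10 read below the array medians. The count of assembly genes below 0 was 4 of 6 without control replicate 2, 4 of 6 without tyrosol replicate 3, 5 of 6 without tyrosol replicate 1 and 5 of 6 without both second replicates or with another centring of the arrays, and over all genes measured 44.7% differed by more than 0. Among assembly genes outside the 42, sft-1, the worm counterpart of SURF1, had the lowest limma p of the list of other respiratory chain genes. It read 4.38, 4.45 and 4.24 in control worms and 4.05, 3.87 and 4.00 in tyrosol worms, all below the controls, and differed by -0.38 (SE 0.10, limma adjusted p = 0.30).

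Complex V had 9 genes, with a median difference of 0.034 on the log2 scale, 5 above 0 and 4 below, and -0.017 without tyrosol replicate 2. Of the catalytic head, atp-1, for the alpha subunit, read 9.55, 9.47 and 9.47 in control worms and 9.44, 9.14 and 9.37 in tyrosol worms. All tyrosol values of atp-1 were below all control values, and the difference was -0.18 (SE 0.10, limma adjusted p = 0.77). Tyrosol replicate 2 was the lowest, and without it the difference was -0.096. The gene atp-2, for the beta subunit that carries the catalytic sites, differed by -0.061 (SE 0.090).

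In the stalk, atp-5, for subunit d, had the highest difference of the complex. Its values were 9.85, 9.60 and 9.79 in control worms and 9.83, 9.95 and 9.81 in tyrosol worms, which overlap, and the difference was 0.12 (SE 0.10, limma adjusted p = 0.86). Without control replicate 2 the difference of atp-5 was 0.045, and without tyrosol replicate 2 it was 0.074. A dimmer probe set of atp-5, whose suffix marks no binding of related transcripts, differed by 0.16 (SE 0.097). All its tyrosol values were above all its control values, by a narrow margin. Another dimmer probe set of atp-5 differed by -0.085. The genes atp-3 and atp-4, for the oligomycin sensitivity protein and coupling factor 6, differed by 0.090 and 0.037.

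The b subunit of the stalk has a pair of genes, of which asb-1 is known to act in the germ line. On the log2 scale asb-1 read 9.07, 9.08 and 9.04 in control worms and 8.98, 8.72 and 9.04 in tyrosol worms, a difference of -0.15 (SE 0.11, limma adjusted p = 0.82). The groups overlapped, tyrosol replicate 2 alone was far from the others, and without it the difference of asb-1 was -0.053. Of 20 germ line and oocyte markers 15 had their lowest value of the 6 arrays on tyrosol replicate 2. The same held for 4 of 16 body wall muscle, 3 of 14 intestine, 2 of 14 neuron, 1 of 13 epidermis and 2 of 24 sperm markers. The share over all genes was not counted. The summed linear signal of the germ line and oocyte markers was 13286.1 there, against 16910.6 and 17198.5 on the other tyrosol arrays and 15777.9 to 17114.9 in control worms, with 0 of the 20 called and 0 at 0. Their part in the values of asb-1 was not tested.

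Its partner asb-2 read 6.30, 6.33 and 6.15 in control worms and 6.22, 6.40 and 5.995 in tyrosol worms, a difference of -0.051 (SE 0.12). The ratio of asb-1 to asb-2 moved by -0.099 (SE 0.22, two-sided exact permutation p = 0.8). For the g subunit, asg-1 read 9.11, 8.73 and 8.86 against 9.13, 9.05 and 8.78, and asg-2 read 7.60, 7.89 and 7.63 against 7.60, 8.07 and 7.55. Both sets overlap, with differences of 0.088 (SE 0.14) and 0.034 (SE 0.16), and their ratio moved by 0.054 (SE 0.25, exact permutation p = 0.8). A second, dimmer probe set of asg-1 differed by -0.035.

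Set side by side, the medians of complexes I, II, III, IV and V were 0.056, 0.037, 0.047, -0.039 and 0.034 on the log2 scale. These cover only the genes of the naming rule. The median of each complex on each array shows how these compare with the spread: complex I stood at 0.036, -0.035 and 0.011 on the control arrays, in replicate order, against -0.0094, 0.18 and 0.051 on the tyrosol arrays. For complexes I, III and V the highest of the 6 arrays was tyrosol replicate 2. The groups overlapped for complexes I, II, III, IV and V, and of the sets drawn here the 6 assembly genes had all tyrosol arrays (-0.15, -0.17 and -0.12) below all control arrays (-0.058, 0.16 and -0.091). The split of complex IV by role was made with earlier results of these data known, so this separation is a description only. No test of one complex against another was made.

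**Figure D3:**
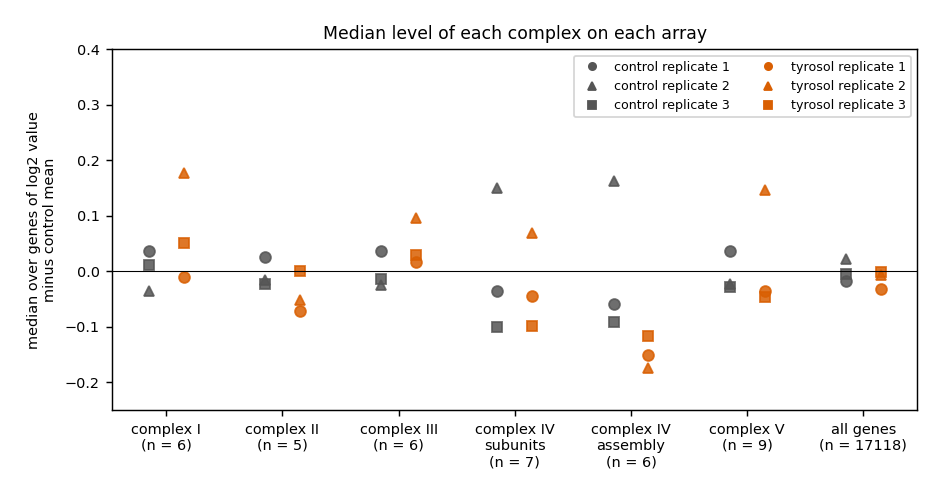
Median over the genes of each complex of the log2 value minus the control mean, on each array; grey marks control, orange tyrosol, and the symbol gives the replicate. The groups overlap for complexes I, II, III and V and for the subunits of complex IV, tyrosol replicate 2 is the highest array for complexes I, III and V, and the assembly genes of complex IV lie lower on all 3 tyrosol arrays. The split of complex IV was made with earlier results of these data known.

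Of the 42 genes, 5 had all tyrosol values below all control values: nuo-5, sdha-2, ucr-2.3, cox-11 and atp-1. That is 1 gene in each complex, against 6.78% of all genes measured and 8.69% of the genes above the median of the arrays. On the brightest probe sets only cyc-2.2 had them all above. The differences of the 5 genes, from -0.18 to -0.084, are within the size that the other members show with overlapping groups.

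Another pattern ran along the replicate numbers, and it was described after the values were seen. In 16 of the 42 genes replicate 2 was the highest array in the control group and in the tyrosol group, against 20.6% of all genes measured and 24.2% of those above the array median. Replicate 2 was the lowest in both groups in 4 of the 42, against 14.2% of all genes. Replicate 3 was the lowest in both groups in 10 of the 42, against 10.5% of all genes, and replicate 1 the highest in 6 of the 42, against 6.96%. Complex IV held 8 of the 16, among them 6 of its 7 subunit genes, and complex I held 0.

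The largest case was cox-17, which read 5.42, 6.01 and 5.37 in control worms and 5.25, 6.01 and 5.27 in tyrosol worms. The second array exceeded the mean of the others of its group by 0.62 in control worms and by 0.76 in tyrosol worms, while the groups differed by -0.089 (SE 0.24). With the replicate number as a block in limma the standard error of cox-17 was 0.094. In cox-6C, for a small subunit, the log2 values were 9.31, 9.65 and 9.33 in control worms and 9.33, 9.68 and 9.34 in tyrosol worms, nearly the same in each numbered pair. The excess of the second array was 0.33 and 0.35 for cox-6C, 0.23 and 0.33 for cox-5B, 0.30 and 0.26 for cox-7C, and 0.27 and 0.49 for the ATP synthase gene asg-2, in control and tyrosol worms. The poly-A excess was the highest of its group on both second arrays, 1.53 and 2.18. Of the 20 germ line and oocyte markers, 15 were the lowest of their group on control replicate 2 and 17 on tyrosol replicate 2. On these arrays 3 and 2 of them were the highest. The lowest of their group there were also 4 and 9 of 16 muscle and 2 and 17 of 24 sperm markers. For 13 epidermis, 14 intestine and 14 neuron markers these counts were 1 and 4, 5 and 3, and 5 and 5. The highest there were 9 and 4 of the muscle, 20 and 3 of the sperm and 9 and 6 of the epidermis markers. For intestine and neurons they were 6 and 6, and 7 and 5. The shares over all genes were not counted. The part of the poly-A excess or of tissue make-up in this pattern was not tested.

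**Figure D4:**
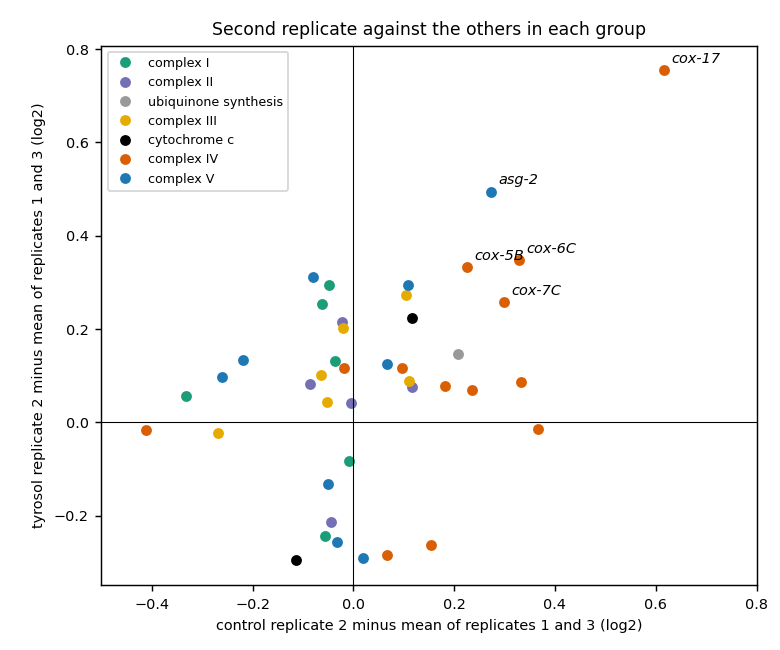
For each of the 42 genes, the log2 value of replicate 2 minus the mean of replicates 1 and 3, in the control group (horizontal axis) and the tyrosol group (vertical axis), coloured by complex. The genes with the largest excess in both groups, cox-17, asg-2, cox-6C, cox-5B and cox-7C, lie at the upper right.

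Genes that work with the chain were described from lists fixed by function, with earlier results of these data known. In each of the 5 lists the rank product and limma called 0 genes, near the 0.882% and 0.351% of all genes called. The counts at an unadjusted limma p under 0.05 given next stand beside 7.21% of all genes. Among 24 other genes of the chain and the inner membrane, which include further complex I subunits, carriers and assembly factors, the median difference was -0.043 on the log2 scale, with 10 above 0 and 14 below. At an unadjusted limma p under 0.05 stood 1 of these 24, sft-1. The complex I genes among them with nduf names and lpd-5 ran from -0.11 for lpd-5 to 0.14 for nduf-7. Of these genes only nduf-7 lay above 0. For nduf-2.2, nduf-5, nduf-6, nduf-9 and nduf-11 the differences were -0.068, -0.064, -0.044, -0.10 and -0.080.

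The 23 genes of the tricarboxylic acid cycle and pyruvate dehydrogenase, which supply the electrons, had a median of -0.058, with 9 above 0 and 14 below. The median turned to 0.016 without tyrosol replicate 2. Without control replicate 1 it was 0.0076 when the brightest probe sets were chosen anew on the arrays kept. On the same probe sets it stayed below 0 without that array. The lowest limma p among them was that of pdha-1, the E1 alpha subunit of pyruvate dehydrogenase. It read 8.74, 8.87 and 8.71 in control worms and 8.53, 8.41 and 8.66 in tyrosol worms, and differed by -0.24 (SE 0.10, limma adjusted p = 0.67), the 1 gene of this list with an unadjusted p under 0.05. The 16 glycolysis genes had a median of -0.016, and gpd-2, a glyceraldehyde-3-phosphate dehydrogenase gene, had the lowest limma p with a difference of 0.21 (SE 0.093, adjusted p = 0.68). It read 9.01, 8.97 and 9.12 in control worms and 9.24, 9.32 and 9.18 in tyrosol worms, all above the controls. The suffix of its probe set marks possible binding of related transcripts. Of these 16, 0 had an unadjusted p under 0.05.

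The 25 genes of mitochondrial import, chaperones and stress response had a median of -0.046, with 11 above 0 and 14 below and 0 at an unadjusted limma p under 0.05. Without tyrosol replicate 3 that median was 0.0030. In this list atfs-1, the transcription factor of the mitochondrial unfolded protein response, had the lowest limma p. It read 5.57, 5.63 and 5.59 in control worms and 5.36, 4.35 and 5.45 in tyrosol worms. All tyrosol values of atfs-1 were below the controls, with tyrosol replicate 2 far below the rest, and the difference was -0.55 (SE 0.26, limma adjusted p = 0.73). Without that array the difference of atfs-1 was -0.19. The chaperone gene hsp-6, a usual reporter of that response, differed by 0.043 (SE 0.10). Another chaperone gene of the list, hsp-60, differed by -0.31 (SE 0.19, limma adjusted p = 0.78). All tyrosol values of hsp-60 were below the controls, and without tyrosol replicate 2 its difference was -0.077.

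The probe sets themselves set part of the uncertainty. Of the 42 genes, 13 were read by more than 1 probe set, and in 8 of these the probe sets differed in the sign of the difference between groups. They were asg-1, atp-5, cox-5A, cox-6A, gas-1, isp-1, sdhb-1 and ucr-2.2. For nuo-5 both probe sets differed the same way, the other one by -0.29. The largest gap between probe sets of a gene was 0.24 on the log2 scale, for atp-5.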

How the data were processed

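The deposited values were log2 expression, normalised by the authors with RMA in affylmGUI, as the design text states. The sources used here give no version of RMA, and the base of the log was inferred from the range, 0.47 to 12.53. With 3 arrays a group, precision is limited by their number. After 77 control probe sets were set aside, 22548 were tested, of which 20766 name 1 gene, 887 several and 895 none. The 42 members and all lists were chosen with earlier results of these data known, and each of the 42 symbols was found in the gene table used for names (WBcel235).

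The test named there, the rank product, was rewritten in Python 3.11.15 (numpy 2.4.6) with 9 array differences and 100 permutations and called below a false discovery rate of 0.05. Limma 3.58.1 under R 4.3.3, two-sided with Benjamini-Hochberg adjustment over all probe sets, gave differences, standard errors and 95% intervals. Both were tested on simulated data. Deviations of same-numbered arrays from their group means correlated at 0.11, 0.37 and 0.26 over all probe sets, so the numbers were taken to pair the arrays, from the data and not from the labels. The block raised limma's calls from 60 to 125 of 17118 genes. Values per array were given by rule for the highest and lowest difference of each complex, gas-1, isp-1, mev-1 and clk-1. By the same rule they were given for members sharing a name stem and members whose groups do not overlap. Also covered was the gene of lowest limma p in each list of genes that work with the chain. Other members and genes with values, among them cox-17, cox-6C, cox-5B, hsp-6, hsp-60, lpd-5 and the nduf genes, were named after their values were seen. Figures were drawn with matplotlib 3.10.9.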

Additional observations from a re-analysis of the deposited data

How the results depend on the processing

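The count of respiratory chain genes called was 0 under each of 18 alternatives. In those that left out arrays, the brightest probe set of a gene was chosen anew on the arrays kept. Over all probe sets the rank product called 213, limma 76, limma with the replicate block 163 and the rank product with the replicate block 232. The replicate block changed no call among the 42 genes. The rank product called 107 without both second arrays, 107 without probe sets ending in _x_at, _s_at or _f_at, and 100 to 219 without single arrays. Each of the medians of complexes I to V took both signs over the alternatives.

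Without single arrays the median log2 difference ran from -0.0352 to 0.0641 for complex II, 0.0034 to 0.0624 for complex III, -0.0744 to -0.0083 for other respiratory chain genes, -0.1328 to -0.0148 for ubiquinone synthesis and -0.019 to 0.0091 for glycolysis. Single genes that changed sign ran from -0.1496 to 0.0551 (asb-2), -0.131 to 0.1278 (asg-2), -0.0653 to 0.0678 (cyc-2.1) and -0.0352 to 0.0905 (mev-1). Without both second arrays the medians were -0.0427 for complex II, -0.0097 for complex III, -0.018 for other respiratory chain genes and 0.0083 for glycolysis, and asg-1, asg-2, cyc-2.1 and mev-1 differed by -0.0316, -0.04, -0.0267 and -0.0427. Cyclic loess gave -0.0217 for other respiratory chain genes and -0.0004 for glycolysis. The mean of all probe sets gave -0.031 for complex III, -0.0326 for glycolysis, -0.0242 for isp-1 and -0.0378 for ucr-2.2. The dimmest probe set gave -0.018, -0.0682 and -0.068 for complexes I, II and III, -0.051 for glycolysis, and -0.0351, -0.062, -0.1212, -0.0682 and -0.1252 for asg-1, gas-1, isp-1, sdhb-1 and ucr-2.2. Without probe sets of the 3 suffixes the values were -0.0524 for complex III, -0.0017 for glycolysis, 0.0445 for mitochondrial import and chaperones, -0.0351 for asg-1 and -0.1252 for ucr-2.2. With dim probe sets left out glycolysis stood at -0.0309, and cyc-2.2 had no value. The cause of these shifts was not tested. The count of complex IV assembly genes below 0, the muscle sum without act-4 and values without single arrays for genes outside the naming rule were chosen after seeing the data.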
